A study of Mus musculus with 10 samples.

Results

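Spp1, Sox9, Krt8, Krt18 and Clu (entries spp1, sox9, krt8, krt18 and clu in the count tables) are 5 of the 14812 gene entries measured in mouse hepatocytes, the main cells of the liver parenchyma. They were chosen by name as genes of the bile duct epithelium that can also be read in hepatocytes near the portal tract, and earlier results of these data were known when they were chosen. Spp1 encodes osteopontin, a secreted glycoprotein that binds integrins and CD44. Sox9 encodes a transcription factor of the biliary lineage. Krt8 and Krt18 encode the keratin pair that forms the intermediate filaments of hepatocytes and of duct cells. Clu encodes clusterin, a secreted chaperone that also travels on lipoprotein particles.

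The liver lobule runs from the portal tract, where blood enters and bile ducts lie, to the central vein, and hepatocytes along this axis differ in the genes they use. Bile duct cells (cholangiocytes) express Spp1 and Sox9 strongly, with Krt7, Krt19 and Epcam. A small population of hepatocytes beside the duct is known to carry low levels of some duct genes while keeping hepatocyte genes, and Notch and Hippo signalling are known to act on duct fate.

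The samples were 10 libraries of hepatocytes from C57BL/6 male mice aged 3 months, fed chow freely, with no genetic alteration named. All mice were anaesthetised with ketamine and xylazine, and the cells were obtained by collagenase perfusion and a Percoll gradient, which selects hepatocytes, so every value below is a value in cells that survived that preparation. The groups were 4 zeitgeber times (ZT, hours in the light-dark cycle): 3 libraries at ZT0 (A, B and C), 2 at ZT6 (A and B), 3 at ZT12 (A, B and C) and 2 at ZT18 (A and B). The labels do not give the number of mice in a library, so p-values measure the spread between libraries, which may be partly technical. Libraries held 710 to 2860 cells and 1454623 to 7144803 unique molecular identifiers (UMIs, tagged RNA molecules), with a median of 1588 to 2662 UMIs per cell, and all 18378 cells were used. The cell columns carry numbers and no barcodes, so barcodes shared between libraries could not be counted.

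The hepatocyte label was set beside cell type markers, in cells that held 1048 to 10001 UMIs each. Cells or genes removed before deposit would not show in these counts, and whether any were removed was not tested. Levels are given as CPM, the UMIs of a gene scaled to 1000000 UMIs of the library or group of cells. Hepatocyte markers (Alb, Apoa1, Ttr, Serpina1c and Trf) took 37702 to 75990 CPM in each library. Of 9 cholangiocyte markers, 6 have an entry and together gave 177 UMIs in all cells, of which 164 were Pkhd1. Epcam gave 3 UMIs, Krt7 gave 3, Krt19 gave 2 and Ehf gave 0, so the 5 genes were read here in cells with almost no RNA of the defining duct markers. The 9 macrophage markers gave 142 UMIs (0 to 6.81 CPM in a library), with Clec4f, C1qa, C1qb and Csf1r at 0 and 78 UMIs of Cd5l, 33 of Vsig4, 16 of Marco and 13 of Cd68. The 6 endothelial markers gave 460 UMIs (3.44 to 16.7 CPM), with Clec4g and Ptprb at 0. The 7 stellate cell markers gave 304 (1.37 to 12.4 CPM) and the 5 erythroid markers 4697 (72.2 to 361 CPM), with none of either list at 0. Of the erythroid UMIs, 3478 were Alas2, read in 2964 cells, while each globin gene was read in 14 to 126 cells.

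Krt8 and Krt18 are neighbours on chromosome 15, with 23873 bases between them and on opposite strands, while Spp1 lies on chromosome 5 (104435111 to 104441053), Sox9 on chromosome 11 (112782210 to 112787757) and Clu on chromosome 14 (65968483 to 65981548), in RefSeq's annotation of GRCm38.p6. Krt8 spans 101996711 to 102004342 and Krt18 spans 102028216 to 102032026. Of the 5 genes, 3 (Spp1 and both keratins) matched RefSeq's promoter table (GRCm38.p6). The 250 bases before a start site of each are shown because the comparison within cells turns on these genes. For Spp1, which has 2 start sites there, the first is shown. Capitals mark matches to a SOX core (ACAAAG or its reverse complement CTTTGT) or an RBPJ core (GTGGGAA), the site of the Notch effector. A TEAD core (GGAATG) and an E-box (CACGTG) were also searched on both strands and gave no match in these windows.
Spp1, first start, chr5:104434861-104435110, plus strand: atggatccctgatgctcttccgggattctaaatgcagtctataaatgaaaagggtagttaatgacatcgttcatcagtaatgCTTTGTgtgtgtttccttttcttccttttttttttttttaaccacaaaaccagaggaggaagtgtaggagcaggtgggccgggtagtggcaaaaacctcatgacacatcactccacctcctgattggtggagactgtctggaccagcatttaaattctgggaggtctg
Krt8, chr15:102004343-102004592, minus strand: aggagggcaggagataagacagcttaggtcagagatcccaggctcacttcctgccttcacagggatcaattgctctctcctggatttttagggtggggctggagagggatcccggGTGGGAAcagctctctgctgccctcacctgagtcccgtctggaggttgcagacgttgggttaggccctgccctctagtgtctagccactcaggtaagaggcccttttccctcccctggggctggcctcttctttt
Krt18, chr15:102027966-102028215, plus strand: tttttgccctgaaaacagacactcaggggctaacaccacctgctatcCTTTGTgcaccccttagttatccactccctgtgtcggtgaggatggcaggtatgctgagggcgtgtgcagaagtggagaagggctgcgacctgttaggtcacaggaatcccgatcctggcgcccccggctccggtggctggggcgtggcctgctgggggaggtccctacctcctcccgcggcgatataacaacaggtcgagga
The SOX match began 168 bases before the first Spp1 start and 203 bases before the Krt18 start, and the RBPJ match 135 bases before the Krt8 start. The window of the second Spp1 start (chr5:104435942-104436191, not shown) also held a SOX match, 243 bases before that start. Of 32851 promoters of this length, 16.5% held the SOX core, 12.6% the TEAD core, 5.42% the RBPJ core and 6.02% the E-box. A SOX match is thus common, and an RBPJ match is less so. A match is a description of the sequence and shows no binding.

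Across all cells, Spp1 and Sox9 were rare transcripts and the keratins and Clu were widespread. Without correction for depth, 450 of 18378 cells (2.45%) had a UMI of Spp1 and 523 (2.85%) had one of Sox9. Krt8 was read in 4207 cells (22.9%), Krt18 in 4214 (22.9%) and Clu in 13657 (74.3%). When every cell was thinned to 1000 UMIs, which left out 0 cells, the shares were 1.22% for Spp1 (exact binomial 95% interval 1.07% to 1.39%), 1.31% for Sox9 (1.15% to 1.48%), 10.9% for both keratins and 50.7% for Clu (49.9% to 51.4%). Of the 224 thinned cells with Spp1, 100 came from ZT0 A, where the share was 4.81% against 0.208% to 1.66% in the other libraries. Without ZT0 A, a setting chosen after seeing the data, the Spp1 share was 0.761% (124 of 16297 cells; 0.633% to 0.907%) and the Sox9 share 1% (163 cells; 0.853% to 1.17%). Intervals over pooled cells or UMIs cover counting error only.

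Spp1 was concentrated in a few cells, and Sox9 was not. Of its 987 UMIs, 43.9% lay in 40 cells that held 5 or more, and a single cell held 81. Those 40 cells came from 7 libraries, with 18 in ZT0 A, 6 in ZT12 A, 5 in ZT6 A, 4 in ZT12 B, 3 each in ZT0 B and ZT12 C and 1 in ZT6 B. The 565 Sox9 UMIs lay in 523 cells, 93.1% of which held 1, and no cell held more than 3. No cell held more than 8 Krt8 or 7 Krt18 UMIs, and the highest Clu count was 25.

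Spp1 was the most variable of the 5 between the ZT0 libraries. At ZT12 this was not so over all cells, where Krt8 ran from 63.9 to 160 CPM and Spp1 from 21.1 to 40.6. Over all cells, the CPM of Spp1 stood at 85.3, 12.3 and 2.7 in ZT0 A, B and C, at 16.3 and 5.02 in ZT6 A and B, at 40.6, 21.1 and 28.1 in ZT12 A, B and C, and at 8.8 and 3.23 in ZT18 A and B. The highest and the lowest library of the whole set were thus both collected at ZT0. In the portal part of each library (the most portal of 3 equal parts of its cells, ordered as described below), the ZT0 libraries spanned 4.62 on the log2(CPM + 1) scale, and only 3 of 8865 tested genes spanned more. The median gene spanned 0.60. At ZT12 Spp1 spanned 1.27 in the portal part, and 1725 genes spanned more. Removing the cell with 81 Spp1 UMIs lowered ZT0 A from 85.3 to 71.3, which left it the highest library.

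Sox9 followed the time of day. Its level was 32.3, 17.2 and 17.7 in ZT0 A, B and C, 4.06 and 0.773 in ZT6 A and B, 2.75, 3.36 and 6.02 in ZT12 A, B and C, and 17.3 and 11.3 in ZT18 A and B. Every library of ZT0 and ZT18 was above every library of ZT6 and ZT12, and within each of those pairs of times the libraries overlapped. The means were 22.4 ± 8.58 (SD, n = 3) at ZT0, 14.3 ± 4.24 (SD, n = 2) at ZT18, 4.04 ± 1.74 (SD, n = 3) at ZT12 and 2.42 ± 2.32 (SD, n = 2) at ZT6. The depth ran partly with the levels, since the median UMIs per cell were 2130 to 2662 at ZT0 and 1588 to 2611 over the other times, and the share of cells thinned to equal depth kept the order: 1.61% to 3.7% at ZT0, 1.34% to 1.67% at ZT18 and 0.139% to 0.615% at ZT6 and ZT12.

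The keratins and Clu varied less. Krt8 ran from 63.9 (ZT12 A) to 160 (ZT12 C), with a median of 118, and Krt18 from 65.3 (ZT12 A) to 169 (ZT6 B), with a median of 114. Clu ran from 474 (ZT12 A) to 1139 (ZT12 C), with a median of 740. For Krt8, Krt18 and Clu the lowest library was ZT12 A, which also held the fewest cells. Mean levels by time were 96 ± 8.49 (SD, n = 2) to 138 ± 20.5 (SD, n = 2) for Krt8 and 97.8 ± 30.2 (SD, n = 3) to 162 ± 10.6 (SD, n = 2) for Krt18. For Clu they were 588 ± 84.9 (SD, n = 2) to 783 ± 335 (SD, n = 3).

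**Figure D1:**
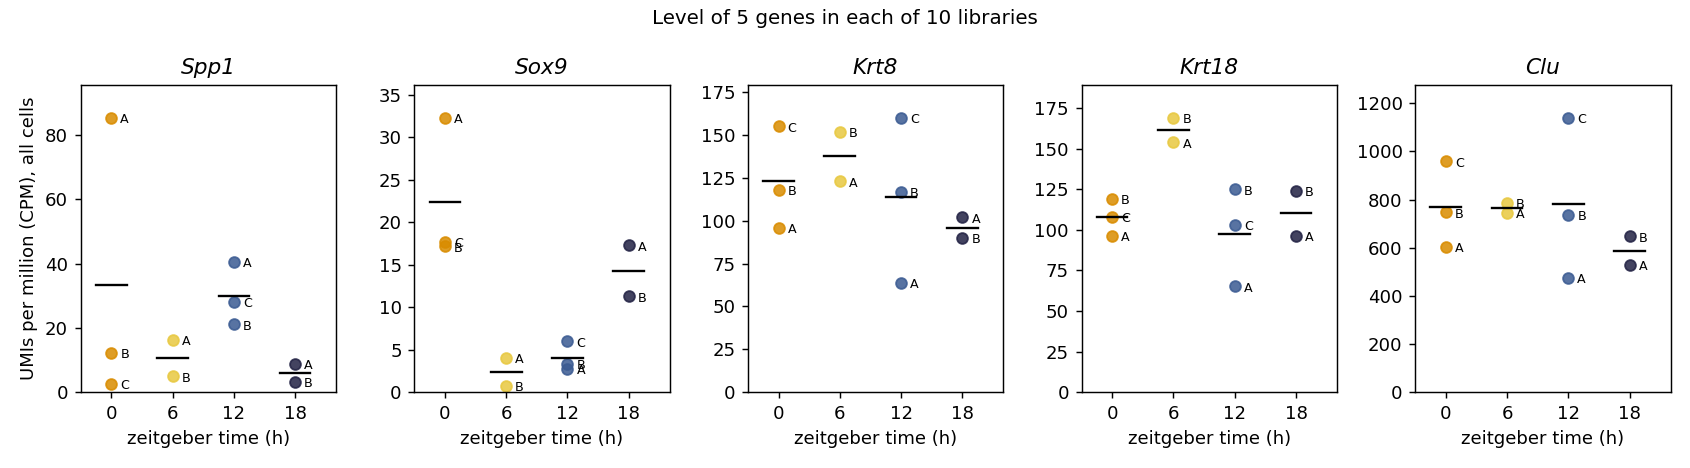
CPM over all cells (linear axis from 0) against zeitgeber time for Spp1, Sox9, Krt8, Krt18 and Clu; each point is a library with its letter and each bar is the mean of a time. Sox9 sits between 11.3 and 32.3 at ZT0 and ZT18 and between 0.773 and 6.02 at ZT6 and ZT12, while the ZT0 libraries of Spp1 span 2.7 to 85.3.

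A 24-hour cosine fitted to all 10 libraries (edgeR's quasi-likelihood test, Benjamini-Hochberg over 8908 genes) called 1 of the 5 genes, Sox9, where 5.14% of all tested genes were called. The Sox9 amplitude was 1.81 on the log2 scale, a peak-to-trough fold of 12.3, with the fitted peak at ZT21.47 and an adjusted p of 0.0031. The amplitudes of the other 4 were 0.38 for Spp1 (adjusted p = 0.909), 0.26 for Krt8 (0.541), 0.27 for Krt18 (0.496) and 0.17 for Clu (0.798). With 4 times, the peak is read from a fixed curve shape and not from dense sampling. In the portal part alone the Sox9 amplitude was 1.60 with a peak at ZT22.05 (adjusted p = 0.00334, edgeR), where 4.34% of 8865 genes were called, and again none of the other 4 passed.

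Between the opposite times, Sox9 was 6.33-fold lower at ZT12 than at ZT0, a log2 difference of −2.66 ± 0.43 (SE; adjusted p = 0.00289, edgeR), where 3.44% of genes were called and 1.7% were called lower. The 3 ZT12 libraries lay below all 3 ZT0 libraries, as 18.1% of tested genes did in either direction. The labels name a 10x index for each library, and ZT0 and ZT12 libraries of the same letter share its number. Within those pairs Sox9 fell by 3.15 in index number 3, by 1.41 in number 5 and by 2.06 in number 7, on the log2(CPM + 1) scale. With the letter as a block, 504 genes were called in place of 306, and Sox9 stood at −2.48 ± 0.32 (SE; adjusted p = 0.000542, edgeR).

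At ZT18 Sox9 was 5.42-fold higher than at ZT6, with a log2 difference of 2.44 ± 0.55 (SE; adjusted p = 0.0265, edgeR), where 3.79% of genes were called and 2.35% were called higher (1.45% lower). That call was lost when any 1 of the 4 libraries was left out (adjusted p = 0.0601 without ZT6 A, 0.183 without ZT6 B, 0.18 without ZT18 A and 0.0795 without ZT18 B), although the direction held. Libraries of these times did not overlap for 62% of tested genes, nor for 4 of the 5 genes here (all but Spp1), so a lack of overlap between 2 and 2 libraries carries little weight. Both ZT18 libraries carry index number 4 and both ZT6 libraries number 7, so time and index number cannot be told apart in this pair.

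Spp1 had no stable direction between the opposite times. ZT12 against ZT0 gave −0.43 ± 0.83 (SE; adjusted p = 0.86, edgeR), with a 95% interval from −2.05 to 1.19, and ZT18 against ZT6 gave −0.84 ± 1.23 (SE; adjusted p = 0.765, edgeR). Without ZT0 A the first difference turned to 1.81, and with the letter as a block to 0.49. Within index numbers, Spp1 differed by −1.05 in number 3, by 2.98 in number 5 and by 0.73 in number 7. Over all cells, every ZT12 library (21.1 to 40.6 CPM) lay above those of ZT6 (5.02 and 16.3) and ZT18 (3.23 and 8.8). The ZT0 libraries (2.7 to 85.3) spanned all of these. ZT12 was not tested against ZT6 or ZT18, and the share of all genes with such an order was not counted. The intervals for ZT12 against ZT0 were −0.76 to 0.25 for Krt8, −0.72 to 0.19 for Krt18 and −0.66 to 0.40 for Clu.

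The cholangiocyte markers summed to 2.7 to 6.84 CPM at ZT0, 3.46 to 4.58 at ZT18, 2.32 to 5.28 at ZT6 and 2.01 to 3.5 at ZT12. The endothelial markers summed to 7.33 to 16.7 at ZT0, 6.95 to 9.75 at ZT6, 3.44 to 13.6 at ZT12 and 10.1 to 13.2 at ZT18, and the stellate markers to 3.27 to 12.4, 6.3 to 10, 1.37 to 4.52 and 4.58 to 11.6 at the same times. The macrophage markers summed to 1.93 to 6.81, 1.16 to 4.67, 0 to 5.46 and 0.269 to 0.943. The cholangiocyte, endothelial and stellate sums lay within the range of Sox9 itself, 0.773 to 32.3 CPM. The erythroid markers reached 361 in 1 ZT18 library and stood at 99 in the other, and ran from 72.2 to 108 at the other times. Most erythroid UMIs of the series were Alas2, and these sums were not split into Alas2 and globin genes. The part of all these markers in the time differences was not tested. In bulk sums of this kind, fewer cells with a transcript and less of it per cell cannot be told apart, and nearly every Sox9-positive cell held a single UMI.

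Cells were placed along the lobule by a score of 8 portal and 8 central landmark genes, none of them among the 5, and ordered within each library. The 5 genes were chosen as genes read in hepatocytes near the portal tract, with earlier results known. The differences along this order are therefore given as a description without a test. Spp1 and Sox9 were higher in the portal part than in the central part by 3.82 ± 0.19 and 2.10 ± 0.21 (log2 difference, SE), that is 14.1-fold and 4.28-fold. In the same edgeR fit Krt18 was 0.36 ± 0.08 higher and Clu 0.33 ± 0.06 higher. Krt8 differed by 0.05 ± 0.09, so no portal excess beyond the SE was seen for it in these cells. Over all 8907 tested genes other than landmarks, 24.6% were called in this comparison, with 11.9% higher and 12.7% lower on the portal side.

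Against the central part, Spp1 was higher in the portal part in all 10 libraries, by 1.83 to 6.20 on the log2(CPM + 1) scale. Clu was also higher there in all 10, by 0.01 to 0.48. Of all tested genes, 3.76% were higher in the portal part in every library, which is set beside these counts with nothing read from it. Sox9 was higher in 9 of 10, the exception being ZT6 B with 1 UMI on each side, and Krt18 in 8 of 10. Krt8 was higher in 5 and lower in 5. Portal-part levels of Spp1 were 170, 28.8 and 5.98 in ZT0 A, B and C, 39.8 and 12 in ZT6 A and B, 100, 40.9 and 72.3 in ZT12 A, B and C, and 11.1 and 3.05 in ZT18 A and B. The central part of the same libraries held 0 to 9.31. The portal part was not the highest of the 3 parts in every library. In both ZT18 libraries Spp1 was higher in the middle part, at 13.6 against 11.1 in A and 6.5 against 3.05 in B. Sox9 was higher in the middle part in ZT18 A (25.3 against 17.1) and ZT6 A (6.46 against 4.82). In the other libraries the portal part held the highest level of each.

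Spp1 was higher from eighth 5 of 8 (counted from the central end) on. Its mean level over libraries was 3.26 ± 4.1 CPM (SD, n = 10) in the most central eighth of cells, 6.68 ± 13.6 in eighth 4, 19 ± 29.4 in eighth 5, 21.3 ± 26.6 in eighth 6, 56.3 ± 73.7 in eighth 7 and 54.7 ± 55.3 in the most portal eighth. Without ZT0 A the Spp1 means were lower, at 2.51 ± 3.51 in eighth 4, 10.1 ± 8.59 in eighth 5, 14.3 ± 15.7 in eighth 6, 35.4 ± 34.3 in eighth 7 and 44.8 ± 48.2 in eighth 8 (SD, n = 9). Over all 10 libraries, the last 2 eighths held 35% and 30.6% of all Spp1 UMIs, and their means did not differ beyond the spread. Sox9 was higher toward the portal end, from 2.47 ± 3.32 in the most central eighth to 9.49 ± 9.45 in eighth 3 and 20.2 ± 17.4 in the most portal one. Krt8 went from 135 ± 56.3 to 118 ± 26.8, Krt18 from 102 ± 44.2 to 136 ± 21.6 and Clu from 723 ± 204 to 834 ± 186 (SD, n = 10 for each).

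Shares of cells gave the same picture at equal depth. In cells thinned to 1000 UMIs, 0.391% of the most central eighth (95% interval 0.179% to 0.741%) and 2.71% of the most portal eighth (2.08% to 3.45%) had a UMI of Spp1. For Sox9 the shares were 0.13% (0.0269% to 0.38%) and 2.4% (1.81% to 3.11%). Krt8 was read in 12.3% of the most central and 10.8% of the most portal cells, Krt18 in 10.2% and 12.2%, and Clu in 50.8% and 54.7%. No cell type known to lack the genes was present, so the central end serves as the low reference, and the part of free RNA was not tested. The unthinned shares at the central and portal ends were 0.912% and 5.37% for Spp1 and 0.608% and 5.58% for Sox9, with median depths of 1971 and 2160 UMIs per cell.

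**Figure D2:**
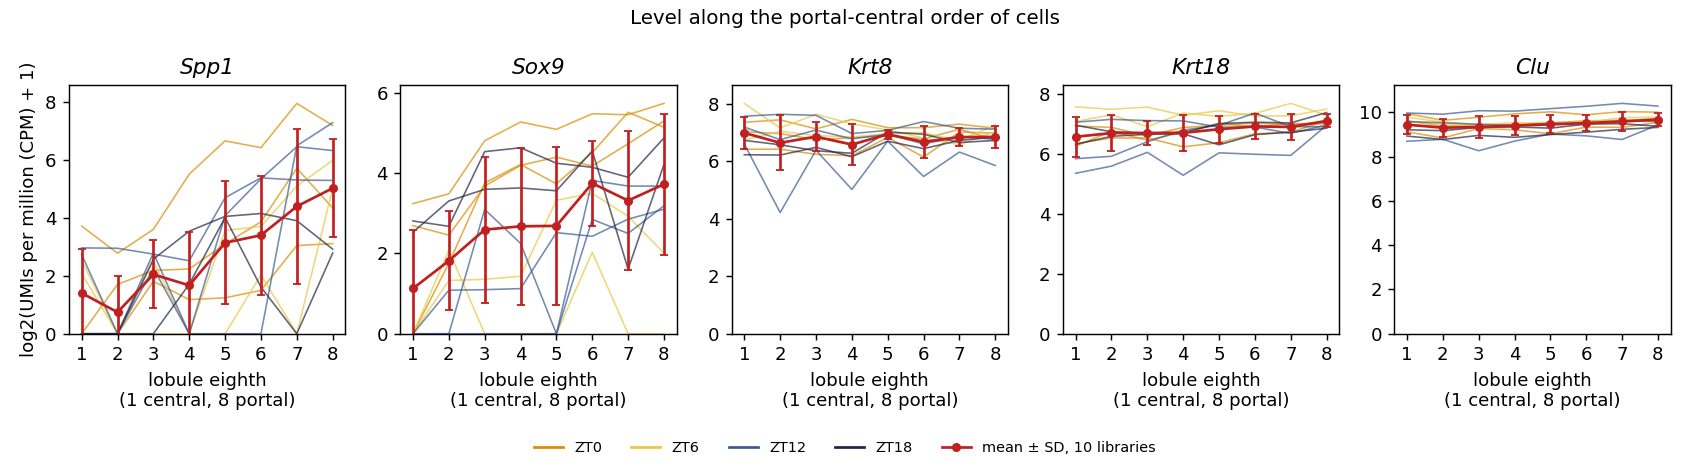
log2(CPM + 1) over 8 equal parts of each library's cell order, from central (1) to portal (8); thin lines are libraries coloured by time and red points are the mean ± SD of 10 libraries. The means of Spp1 and Sox9 rise toward the portal end, while those of Krt8, Krt18 and Clu are nearly level.

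The portal-central difference did not change detectably over the 4 times for any of the 5 (interaction of zone with a 24-hour cosine, edgeR; adjusted p = 0.694 for Krt8, 0.794 for Sox9, 0.979 for Krt18 and 0.983 for Spp1 and Clu). Only 0.0337% of tested genes were called in that test, or 3 of 8907, with 545 at an unadjusted p under 0.05 and 0 called by DESeq2. In the central part too, the Sox9 levels of ZT0 and ZT18 lay above those of ZT6 and ZT12, with 3.83 to 13.4 CPM at ZT0, 8.56 and 9.17 at ZT18, 1.17 and 1.19 at ZT6 and 0 to 1.57 at ZT12. The ZT6 and ZT12 values rest on 0 to 2 UMIs in a library, under a detection floor of 3 UMIs.

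**Figure D3:**
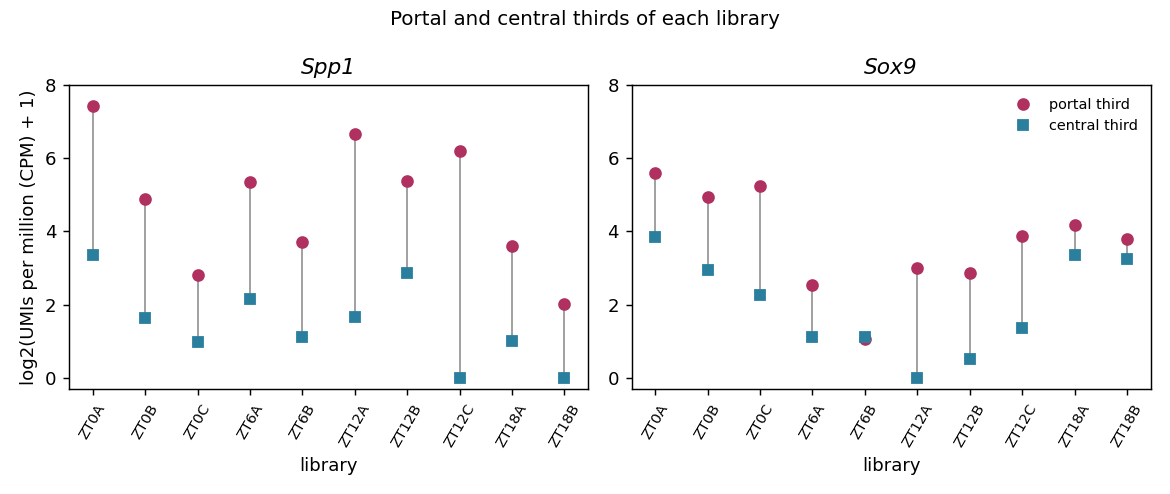
log2(CPM + 1) of Spp1 and Sox9 in the portal part (circles) and the central part (squares) of each library. Spp1 is higher on the portal side in 10 of 10 libraries and Sox9 in 9 of 10, and both parts are lower for Sox9 at ZT6 and ZT12 than at ZT0.

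To ask whether Spp1 went with the other 4 in the same cells beyond position and depth, each of the portal-part cells with an Spp1 UMI was matched to a cell of the same library with none, nearest in portal score and within 10% in total UMIs. Of 274 such cells, 272 were matched, and the 7 libraries with at least 10 pairs gave 255 pairs (median depth 3183 UMIs with and 3088 without Spp1). ZT6 B, ZT12 A and ZT18 B had too few. Krt8 gave 168 UMIs against 99, with higher levels in the Spp1-positive cells of all 7 libraries. The share of all tested genes that were higher in all 7 was not counted, so this count carries little weight alone. In CPM its levels with and without Spp1 were 179 and 124 in ZT0 A, 235 and 160 in ZT0 B, 161 and 116 in ZT0 C, 222 and 59.3 in ZT6 A, 153 and 71.5 in ZT12 B, 220 and 166 in ZT12 C, and 152 and 61.1 in ZT18 A.

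The difference in Krt8 was 0.73 ± 0.19 (log2, SE) with an unadjusted p of 0.000177, and it did not pass the adjustment over all genes (adjusted p = 0.112, edgeR). Where the cells were placed by the even-numbered landmarks alone, it passed (0.96, adjusted p = 0.0054). With up to 5 matched cells per positive cell, an alternative chosen after seeing the data, it was 0.51 (adjusted p = 0.18, edgeR) when scaled by edgeR's trimmed means (TMM; 0.451% of genes called) and 0.70 (adjusted p = 0.00331) when scaled by library size alone (0.259% called). With each library left out it ran from 0.64 to 0.91 (adjusted p 0.124 to 1). With up to 5 matched cells and no ZT0 A, the Krt8 difference was 0.39 (adjusted p = 0.657, edgeR). Of 21 alternative settings in all, Krt8 passed in 2 and did not pass in 19, with a positive sign in each.

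The other 3 partners did not pass. Krt18 stood at 160 against 129 CPM, higher in 6 of 7 libraries (0.30 ± 0.19, SE; adjusted p = 0.999, edgeR; 95% interval −0.08 to 0.67). Sox9 stood at 44.1 against 27.4, on 41 and 25 UMIs, higher in 3 libraries, lower in 2 and at 0 on both sides in the other 2 (0.66 ± 0.43, SE; adjusted p = 0.999, edgeR; interval −0.18 to 1.49). Clu stood at 851 against 797, higher in 3 and lower in 4 (0.09 ± 0.09, SE; adjusted p = 0.999, edgeR; interval −0.09 to 0.27). A p above the threshold does not show that the levels were equal.

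**Figure D4:**
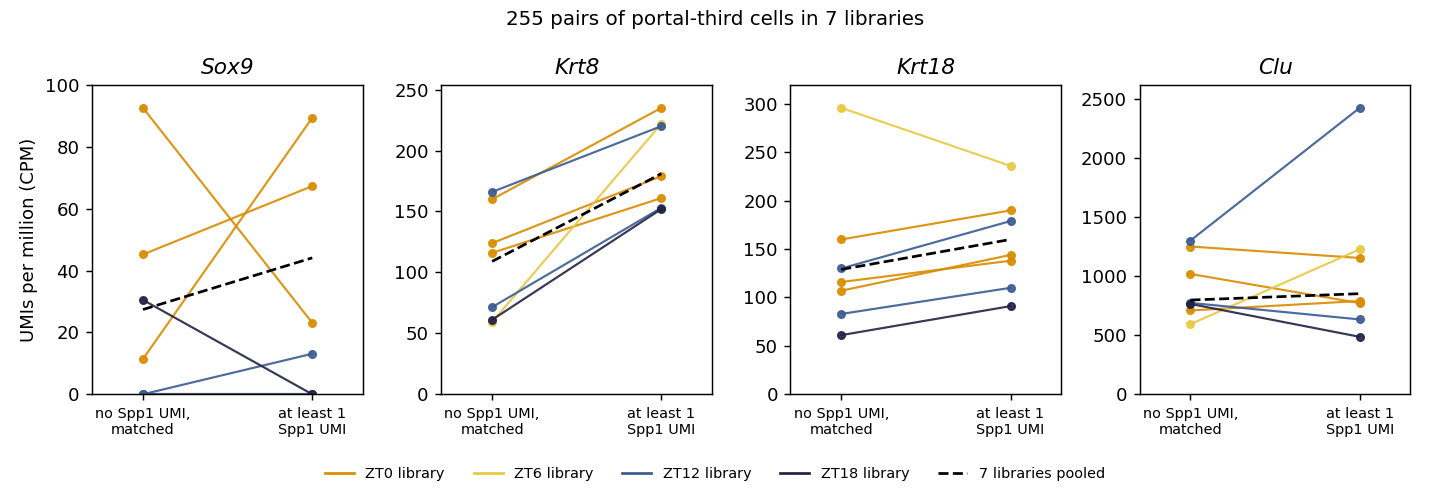
CPM (linear axis from 0) of Sox9, Krt8, Krt18 and Clu in matched portal-part cells without and with an Spp1 UMI; each line is 1 of 7 libraries, coloured by time, and the dashed line pools them. Krt8 is higher in 7 of 7 libraries, Krt18 in 6, Sox9 in 3 and Clu in 3.

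Over all genes the same comparison called 4 of 8827 (0.0453%, with 0.034% higher and 0.0113% lower), with 248 at an unadjusted p under 0.05 and 0 called by DESeq2. Hsd17b6, a hydroxysteroid dehydrogenase, was higher by 0.70 ± 0.13 (log2, SE; adjusted p = 0.00133, edgeR), in 5 of 7 libraries. Of the major urinary proteins, Mup21 was higher by 0.67 ± 0.15 (adjusted p = 0.0224, edgeR) and Mup20 by 0.33 ± 0.07 (adjusted p = 0.00288, edgeR). Reads may be shared with other members of this gene family, which was not tested. Wfdc21 was lower by 0.42, a log2 difference of −0.42 ± 0.09 (adjusted p = 0.0202, edgeR), in 6 of 7 libraries. Without ZT0 A, which gave 111 of the 255 pairs, none of these 4 passed.

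The levels of all 4 partners were highest in the cells with the most Spp1. In portal-part cells with 0, 1, 2 to 4 and 5 or more Spp1 UMIs (5847, 169, 71 and 34 cells), Krt8 stood at 113, 148, 154 and 293 CPM. Krt18 stood at 126, 154, 147 and 220, and Sox9 at 19.1, 29, 51.2 and 73.3. Clu was level at 787, 731 and 785 until the last class, where it was 1442. The classes also differed in depth, with medians of 1996, 3058, 3340 and 4009 UMIs per cell, and in their mix of libraries.

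Cells with 5 or more Spp1 UMIs (a limit chosen after seeing the counts) were therefore set beside up to 5 matched cells each, 33 against 153 cells in 7 libraries, with medians of 3858 and 3756 UMIs. Krt8 stood at 312 CPM (95% Poisson interval 230 to 413) against 95.6 (73.6 to 122), and was higher in 7 of 7 libraries. Krt18 stood at 227 (158 to 316) against 116 (92.1 to 145), also in 7 of 7. Clu stood at 1493 (1306 to 1699) against 814 (747 to 885), in 5 of 7, and Sox9 at 77.9 (40.2 to 136) against 23.9 (13.7 to 38.8), in 3 of 7. Such counts of libraries were not made over all genes.

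Tm4sf4, a tetraspanin-like membrane protein of the duct list, stood at 247 (175 to 339) against 62.7 (45.2 to 84.8), in 6 of 7. Albumin (Alb), the main hepatocyte plasma protein, was lower in all 7, at 25007 (24223 to 25809) against 32712 (32280 to 33148). The intervals cover counting error and not the spread between libraries, and no test was made because the limit was set on these cells. Without ZT0 A, 20 against 90 cells, Krt8 stood at 295 against 86.5, Krt18 at 283 against 118, Clu at 1699 against 876, Tm4sf4 at 354 against 63.4 and Alb at 26587 against 38604, while Sox9 rested on 3 UMIs against 5.

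**Figure D5:**
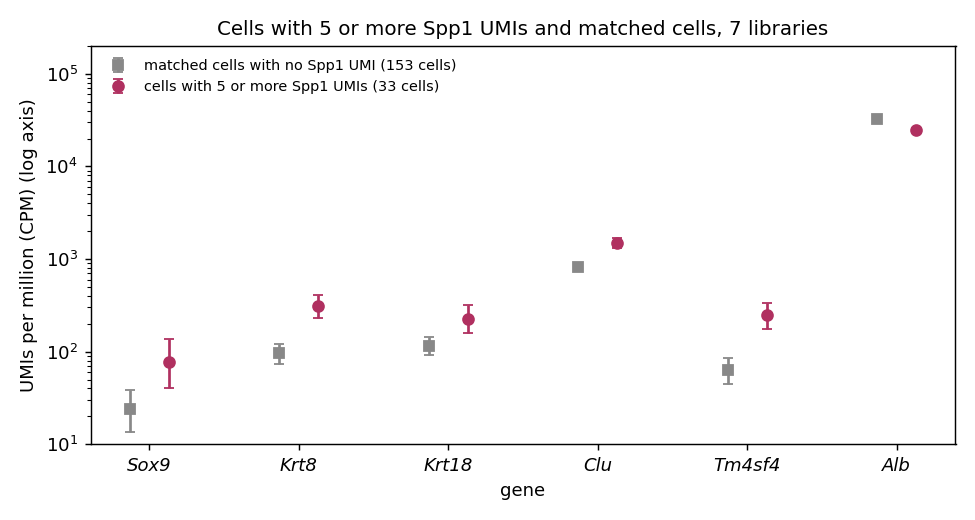
CPM (log axis) of 6 genes in 33 portal-part cells with 5 or more Spp1 UMIs (circles) and 153 matched cells with none (squares), pooled over 7 libraries; bars are 95% Poisson intervals for counting error. Sox9, Krt8, Krt18, Clu and Tm4sf4 lie higher in the first group and Alb lies lower.

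Duct markers were at the edge of detection even there. The 33 cells held 2 UMIs of Epcam, 1 of Krt19 and 0 of Krt7 (upper 95% bound 23.9 CPM), and the 153 matched cells held 0 of each. All 3 Epcam UMIs of the series and 4 of its 5 Cldn7 UMIs lay in the 255 Spp1-positive cells of the matched comparison, as did 9 of its 20 Bicc1 UMIs (an RNA-binding protein of duct and kidney tubule), against 1 in their matched cells. The cholangiocyte markers together gave 16 UMIs against 7 there, the stellate markers 7 against 1 and the macrophage markers 3 against 3. The part of RNA from other cells in these differences was not tested. The cell with 81 Spp1 UMIs, in ZT0 A, had 7021 UMIs in all, with 197 of Alb, 7 of Krt8, 14 of Clu, 1 of Sox9 and none of Epcam, Krt19 or Krt7.

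Counted cell by cell over the whole lobule, the odds ratio for a Krt8 UMI in cells with Spp1 was 1.76 (Mantel-Haenszel odds ratio over library and eighth, cells thinned to 1000 UMIs, 37 cells with both), above 1 in 7 of 10 libraries and 1.55 to 1.87 with each library left out. The Spp1 and Sox9 ratio was 2.22 on 12 cells with both, was above 1 in only 1 of 8 libraries with a value, and was 0.704 without ZT0 A, which held 11 of those cells. Spp1 and Krt18 gave 1.21 (27 cells) and Spp1 and Clu 1.09 (114 cells, above 1 in 8 of 10 libraries). In the most portal eighth alone, the ratios with Krt18 and Clu were 2.32 and 1.96.

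Among the other pairs, Krt8 and Krt18, whose proteins assemble together, gave 1.16 with 253 cells, and above 1 in 7 of 10 libraries. Sox9 and Krt8 gave 1.41 (33 cells), Sox9 and Krt18 0.981, Sox9 and Clu 0.887, Krt8 and Clu 1.04 and Krt18 and Clu 0.971. These ratios describe sparse counts and carry no p.

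The genes whose level was most like that of Spp1 were not the other 4. Over the 80 sums of library by eighth, Pearson's correlation of log2(CPM + 1) with Spp1 was highest for Mmd2 (0.75), the apolipoprotein gene Apoa4 (0.73), the water channel gene Aqp4 (0.72), the trefoil factor gene Tff3 (0.71) and the aldehyde dehydrogenase gene Aldh1b1 (0.68). Sox9 ranked 52 of 8891 genes with 0.49, Krt18 had 0.12, Clu 0.09 and Krt8 0.02. Over the 10 portal-part sums the highest were Snx11 (0.97), Tceal8 (0.93), Capza1 (0.92), Mtmr12 (0.89) and Calm2 (0.88), and Sox9 had 0.09. The 80 points share their libraries, their position along the lobule and their depth, so these values describe likeness only. The second list holds the top 5 of 8848 genes on only 10 points, where Spp1 ran from 3.05 to 170 CPM, so it carries little weight.

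The genes around the 5 in their pathways were partly too low to test, and these lists too were chosen with earlier results known. Of 15 duct genes (the Epcam, Krt19, Pkhd1 and Tm4sf4 group), 3 were high enough to test between parts and 2 passed, where 24.6% of all tested genes were called (11.9% higher and 12.7% lower on the portal side). Pkhd1, which encodes the fibrocystin of duct cilia, was higher on the portal side by 1.10 ± 0.28 (SE; adjusted p = 0.0026, edgeR) and Tm4sf4 by 1.26 ± 0.09 (adjusted p = 1.3e-13, edgeR). The list's median was 1.10, against −0.01 over all tested genes. None of the 3 was called over time.

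Of 15 Notch and Hippo genes, 11 were tested between parts and 6 passed, 2 higher and 4 lower on the portal side, beside the 24.6% of all genes called (11.9% higher, 12.7% lower). Tead1, the DNA-binding partner of the Hippo effectors, was higher on the portal side (1.06 ± 0.20, SE), as was the receptor Notch2 (0.34 ± 0.12, SE). The receptor Notch1 (−1.41), the Hippo target Cyr61 (−1.57), the effector Wwtr1 (−0.91) and the angiomotin gene Amotl2 (−0.57) were lower there. The list's median was −0.05. Hes1, a Notch target, was called over time in the portal part (amplitude 1.04, adjusted p = 0.0448, edgeR), but not over all cells (0.80, adjusted p = 0.084), a difference that was not tested.

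Of 11 keratin and desmosome genes, 7 were tested and 3 were higher on the portal side, beside 11.9% of all genes: Ppl, which encodes periplakin (1.38 ± 0.23, SE), Jup (plakoglobin, 0.47 ± 0.11) and Dsg2 (desmoglein, 0.31 ± 0.08). The median was 0.19. Ppl was also called over time in all cells (amplitude 0.80, adjusted p = 0.0417, edgeR), but not in the portal part (0.67, adjusted p = 0.133). Of 8 osteopontin receptor genes, 4 were tested and the integrin subunits Itga5 (0.68 ± 0.18, SE) and Itgav (0.46 ± 0.12) were higher on the portal side, with a median of 0.29 and again beside 11.9% of all genes, while Itgb1 stood at −0.08 and Itgb5 at 0.11.

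Of 6 lipoprotein and receptor partners of clusterin, 2 were tested and both passed, where 24.6% of all genes were called, with Apoa1 higher (0.75 ± 0.09, SE) and Pon1 lower (−1.59 ± 0.10) on the portal side. Counts this small say little against that background. Pon1 was also called over time in the portal part (amplitude 0.61, adjusted p = 0.0326, edgeR), but not over all cells (0.34, adjusted p = 0.214). The 10 other portal genes, chosen as such with earlier results known, were higher on the portal side, from 0.28 for G6pc to 4.85 for Aldh1b1, with a median of 1.63, from which nothing is read. In the Spp1 comparison within the portal part, no gene of these 6 lists passed.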

How the data were processed

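The authors deposited UMI counts per gene and cell for 10 libraries made with the 10x Chromium 3' kit (per the labels' protocols), and the submitters' processing notes name Cell Ranger with the builds hg19 and mm10. No version is given in the sources used here. Counts were used as deposited, with no further cell filter and no doublet calling. The genes and lists were chosen with earlier results of these data known. Counts were summed per library (or part of the lobule, or matched cells) and tested with edgeR 4.0.16 in R 4.3.3 (quasi-likelihood, TMM, genes averaging 3 CPM or more, CPM being UMIs scaled to 1000000 per sum, Benjamini-Hochberg over all tested genes, threshold 0.05). DESeq2 1.42.0, other filters, scalings, landmarks and matchings, and fits without each library were alternatives. Named genes beyond the 5 were those past the threshold in the Spp1 comparison, the 5 most correlated with Spp1 over each set of sums, and list members that passed. The fits were tested on simulated data. Same-letter ZT0 and ZT12 libraries deviated together (correlations of 0.24, 0.43 and 0.48), and the fit with the letter as a block, an alternative to the main fit without one, is given beside that result. The labels tie these letters to a shared 10x index number.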

Additional observations from a re-analysis of the deposited data

How the results depend on the processing

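Depth limits the Spp1 and Sox9 results, since both genes are at or under 3 UMIs in several parts of the lobule and in many matched sets. The Sox9 rhythm kept its call without each library in turn (adjusted p 0.00315 to 0.0127, edgeR) and was not tested at a minimum of 20 CPM. Causes of the changes below were not tested, beyond the fewer or more genes or libraries that a setting tests. The rhythm over all cells (458 genes called) gave 792 with DESeq2, 283 with the stricter minimum, 710 with no filter, 749 with the letter as a replicate block, 231 without both ZT18 libraries and 228 to 465 with each library left out. ZT12 against ZT0 (306) gave 469 with no filter, 504 with the block and 214 to 314 with each library left out. There Spp1 turned to 0.49 with the block and ran from −0.99 to 1.81 with each library left out, Krt8 from −0.50 to 0.00, and Clu from −0.43 to 0.11, with 0.02 by library size alone. ZT18 against ZT6 (338) gave 199 with the stricter minimum, 595 with no filter, 730 with the block and 50 to 494 with each library left out. In that pair Spp1 ran from −1.67 to 0.25 and Sox9 from 1.92 to 4.17. ZT6 and ZT18 libraries of 1 letter share only the letter (correlation of 0.03). With 2 libraries at each of these times, that value is the same for both letters by construction. The rhythm in the portal part (385) gave 858 with no filter, 220 without both ZT18 libraries and 222 to 436 with each library left out. The zone-dependent rhythm (3) gave 0 with DESeq2 and with the stricter minimum, 5 by library size alone, 42 with no filter, 1 with odd landmarks and 0 to 37 with each library left out. The Spp1 comparison (4) gave 0 with DESeq2, 1 with at least 2 Spp1 UMIs, 14 with even landmarks, 119 unmatched, 1 without the 5% of cells with the most UMIs and 0 to 9 with each library left out. Among settings added after seeing the data, up to 5 matched cells gave 40, or 23 by library size alone, or 61 without ZT0 A. Krt8 passed there with even landmarks (0.96) and with 5 matched cells by library size alone (0.70). Clu was −0.09 unmatched, −0.05 with 5 matched cells, −0.11 with these and no ZT0 A, and −0.02 to 0.20 with each library left out. The Spp1 and Sox9 odds ratio ran from 0.704 to 2.39 with each library left out, and the Spp1 and Clu ratio was 1.96 in the most portal eighth.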

Other observations

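With up to 5 matched cells for each Spp1-positive cell of the portal part (255 against 1177 cells, median depth 3183 and 3011 UMIs), a setting chosen after seeing the data, 40 of 8873 genes were called by edgeR's quasi-likelihood test when scaled by trimmed means (0.451%; 5 higher and 35 lower). Scaled by library size alone, 23 were called (0.259%; 11 higher and 12 lower), 16 of them among the 40. The median of all genes was −0.13 under the first scaling and 0.03 under the second, so each gene is given with both. The genes below were picked after their values were seen, and their counts of libraries were not set beside a share over all genes.

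Among the genes lower under both scalings, albumin (Alb) stood at 29674 against 34969 CPM and was lower in 7 of 7 libraries, with log2 differences of −0.48 (adjusted p = 0.000536) and −0.20 (adjusted p = 0.0251) under the 2 scalings, but with 1 matched cell each it stood at −0.17 (adjusted p = 0.999). Other plasma protein genes did not pass by library size alone, with adjusted p = 0.503 for Ttr, 0.492 for Apoa1, 0.0578 for Apoa2 and 0.0685 for Fgg. Wfdc21 was lower by 0.83 and 0.55, also in 7 of 7 libraries (adjusted p = 8.9e-09 and 3.2e-08). The organic anion transporter gene Slco1a1 differed by −0.86 and −0.64 (adjusted p = 8.7e-05 and 0.000802). The sulfotransferase gene Sult2a8 differed by −0.73 and −0.51 (adjusted p = 8.7e-05 and 0.000487).

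Spink1, a secreted trypsin inhibitor, was higher by 2.05 and 2.12 (adjusted p = 0.00164 and 0.000966) on 31 UMIs against 28, in 4 of 7 libraries. The tetraspanin gene Cd63 was higher by 1.43 and 1.52 (adjusted p = 0.0344 and 0.0251). Aldh1b1 was higher by 0.69 and 0.87 (adjusted p = 0.0134 and 2.6e-05), and Hsd17b6 by 0.53 and 0.70 (adjusted p = 0.0344 and 3.9e-07). Mup20 passed under 1 scaling only, with 0.13 (adjusted p = 0.849) and 0.41 (adjusted p = 1.1e-11). Without ZT0 A and with trimmed means, none of the 5 higher genes passed (adjusted p = 0.0797 for Spink1 and Aldh1b1, 0.184 for Cd63 and 0.589 for Hsd17b6), while 61 genes were called, all of them lower, and 33 of these were among the 40. The median of all genes in that fit was −0.20, and it was not run by library size alone.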
